A study of Arabidopsis thaliana with 9 samples.

Results

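Flowering in Arabidopsis is held back by a group of repressor proteins and released by a pair of integrators, and the 10 genes described here encode both sides of that balance. FLC and its close relatives FLM, MAF2, MAF3, MAF4 and MAF5 are MADS-box repressors, SVP is a MADS-box repressor that works together with FLC and FLM, and TEM1 is a repressor of the RAV family. FT encodes the mobile flowering signal made in leaf veins, and SOC1 encodes a MADS-box activator in the shoot apex. The genes were taken by their identifiers as a named group, which was chosen with earlier results of these data known. All 10 were among the 33977 genes counted, and 9 had enough reads to be tested, the exception being FT.

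RNA was sequenced from aboveground tissue of Arabidopsis thaliana of the ecotype Col-0, collected at bolting from plants grown in a 12-h photoperiod. There were 3 groups of 3 libraries, each labelled as a biological replicate. The dwarf and the large group both had the genotype PPD3-RNAi T+, an RNA interference transgene against PPD3, which encodes a chloroplast protein with a PsbP domain. They were told apart by plant phenotype. The third group was wild type (WT), and the labels do not name the promoter or the number of transgenic lines.

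FLC represses FT in leaves and SOC1 at the apex, and SVP takes part in both. Prolonged cold silences FLC through Polycomb proteins, and the autonomous pathway keeps it low without cold, whereas FRI raises it. Col-0 carries a defective FRI allele and therefore has little FLC and flowers early without a cold treatment. TEM1 and its relative TEM2 repress FT directly. Once FT and SOC1 are active, LFY and AP1 set up the flowers.

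The 6 genes of the FLC clade share so much sequence that reads from one could in principle be counted for another, so their coding starts are shown. Each line gives 120 bases from the start codon of the MADS domain, the DNA-binding part of the protein, read from the TAIR10.1 assembly, and capitals mark the bases that differ from FLC. The positions are chr5:3179220-3179339 on the minus strand for FLC, and, on the plus strand, chr1:28955679-28955798 for FLM, chr5:25982415-25982534 for MAF2, chr5:25987527-25987646 for MAF3, chr5:25992310-25992429 for MAF4 and chr5:25997671-25997790 for MAF5, whose window starts at an in-frame ATG 21 bases after the annotated start.
FLC: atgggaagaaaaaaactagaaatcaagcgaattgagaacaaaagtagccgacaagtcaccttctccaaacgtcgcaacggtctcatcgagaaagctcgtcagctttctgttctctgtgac
FLM: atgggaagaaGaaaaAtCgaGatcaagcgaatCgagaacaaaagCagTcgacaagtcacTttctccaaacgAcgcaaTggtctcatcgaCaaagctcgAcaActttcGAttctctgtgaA
MAF2: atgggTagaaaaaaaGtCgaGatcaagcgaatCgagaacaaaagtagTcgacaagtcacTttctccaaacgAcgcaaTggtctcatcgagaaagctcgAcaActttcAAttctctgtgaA
MAF3: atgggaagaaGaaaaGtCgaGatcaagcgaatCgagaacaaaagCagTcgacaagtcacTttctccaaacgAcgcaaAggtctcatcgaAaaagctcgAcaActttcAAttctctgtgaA
MAF4: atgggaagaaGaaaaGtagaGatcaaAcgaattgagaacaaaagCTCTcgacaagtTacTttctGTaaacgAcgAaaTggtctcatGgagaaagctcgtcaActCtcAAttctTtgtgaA
MAF5: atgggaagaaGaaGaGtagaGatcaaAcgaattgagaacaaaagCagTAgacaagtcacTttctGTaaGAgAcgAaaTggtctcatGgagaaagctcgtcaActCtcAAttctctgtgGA
From FLC, MAF2 differed at 14 of the 120 bases, FLM and MAF3 at 16 each, MAF4 at 22 and MAF5 at 23. FLM, MAF2 and MAF3 formed a tight set, with 4 to 6 differences between any pair of them, although FLM lies on chromosome 1 and the others next to each other on chromosome 5. MAF4 and MAF5 formed a pair with 9 differences between them, and they stood 15 to 17 bases from FLM, MAF2 and MAF3. Over whole exons, stretches of 50 bases found without a mismatch elsewhere in the genome made up 2.46% of those in MAF3, 0.28% in FLM and 0% in FLC, MAF2, MAF4, MAF5, SVP, TEM1, FT and SOC1.

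The libraries were deep and even, with 34660392 to 35217754 reads counted in genes, and several facts about them bear on the flowering genes. PPD3 itself stood at 91.1 to 115 CPM (reads per gene, put on 1 scale by library total and TMM factor) in WT, 77.8 to 108 CPM in large and 87.6 to 128 CPM in dwarf, and no comparison passed edgeR's quasi-likelihood test (adjusted p = 0.934 for dwarf against WT, 0.708 for large against WT and 0.558 for dwarf against large). Dwarf 1, at -77.5 on the first principal component, and dwarf 2, at -41, stood apart from the rest. Of the markers of the labelled tissue, green leaf and phloem companion cell genes were present in all 9 libraries. Shoot meristem markers summed to 0.237, 0.263 and 2.53 CPM in WT 1, 2 and 3, to 11.8 to 16.5 CPM in large and to 5.95 to 13 CPM in dwarf, with 5 of 7 markers detected and CLV3 and WUS at 0 in every library. The flower gene AP1 had 0 counts in WT, at most 5 in a large library and at most 1 in a dwarf library. LFY had 0 counts in WT, at most 4 in a large library and at most 1 in a dwarf library, so these genes, active in young flowers, were absent or nearly so in tissue labelled as bolting. That sum, carried mostly by STM and BP, was lower in every WT library than in every transgenic library, whereas CUC2 and CUC3 overlapped between the groups. In bulk tissue fewer cells of a type and less RNA per cell cannot be told apart.

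Per kilobase of the median annotated transcript, the 10 genes spanned more than 3 orders of magnitude in WT. SVP was the most abundant at 65.9 ± 5.03 CPM per kb (mean ± SD, n = 3). It was followed by MAF2 at 31.8 ± 1.36, FLM at 31.6 ± 2.67, SOC1 at 26.6 ± 2.19, TEM1 at 26.1 ± 3.01 and MAF3 at 9.41 ± 1.02 CPM per kb. A wide gap separated these 6 genes from MAF5 at 1.84 ± 2.12, MAF4 at 1.53 ± 0.479, FLC at 0.235 ± 0.196 and FT at 0.042 ± 0.0364 CPM per kb. In this order the WT values of 4 pairs of neighbours overlapped, namely MAF2 and FLM, SOC1 and TEM1, MAF5 and MAF4, and FLC and FT. The places of MAF2 and FLM depend on the transcript chosen, because over all annotated exons they stood at 9.78 and 7.73 CPM per kb. The level of FLC may be too low, because an antisense gene covers it and reads from the shared bases may not have been counted.

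**Figure D1:**
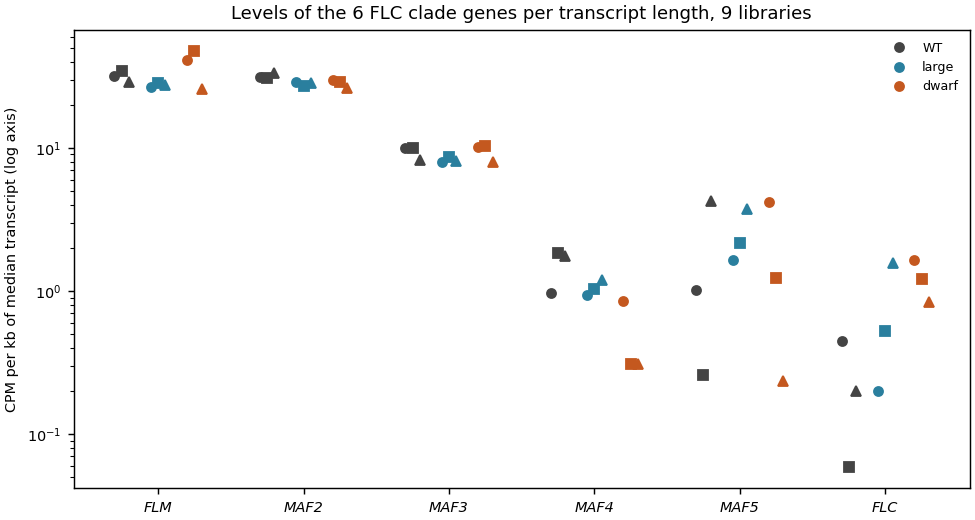
Level of the 6 FLC clade genes in each of the 9 libraries, in CPM per kb of the median transcript on a log axis. Colours stand for WT, large and dwarf, and circles, squares and triangles for replicates 1, 2 and 3; FLM, MAF2 and MAF3 lie in tight bands, and MAF4, MAF5 and FLC lie lower and are spread more widely.

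The spread between libraries followed the same divide. From the lowest to the highest of the 9 libraries MAF2 varied 1.27-fold, MAF3 1.3-fold, SVP 1.38-fold, SOC1 1.43-fold, FLM 1.85-fold and TEM1 2.03-fold. MAF4 varied 6.01-fold, MAF5 18.1-fold and FLC 28.1-fold, and FT was at 0 in 3 libraries. Low counts alone widen such ranges, and FLC had 2 to 60 counts per library, MAF5 6 to 121 and MAF4 10 to 63.

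TEM1 was the only one of the 10 genes that changed in dwarf against WT by edgeR's quasi-likelihood test, and it rose. FLC was higher and MAF4 and SVP were lower in all 3 dwarf libraries than in any WT library, without passing the test. In all, 1 of the 9 genes tested was called at an adjusted p under 0.05, beside 8.76% of all 19870 genes tested. Without overlap between the groups were 5 of the 9, namely FLC, MAF2, MAF4, SVP and TEM1, beside 29.0% of all genes tested. The median log2 fold change of the 9 genes was 0.01, beside 0.05 for all genes tested.

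In large against WT, 0 of the 9 genes were called by edgeR's quasi-likelihood test, beside 4.22% of all genes tested. At an unadjusted p under 0.05 there was 1, TEM1, beside 3717 of all genes tested. TEM1 was also called by limma voom, which called 4192 of all genes, whereas DESeq2 called 0, beside 1833 of all genes. The groups did not overlap for 3, namely FLM and MAF2, lower in large, and TEM1, higher in large, beside 33.7% of all genes tested. In dwarf against large, 0 of 9 were called by edgeR, beside 0.649% of all genes tested. There 4 had an unadjusted p under 0.05, beside 3954 of all genes tested. DESeq2 called 1 (TEM1), beside 1706 of all genes, and limma voom called 2 (TEM1 and FLM), beside 3781 of all genes. The groups did not overlap for MAF4 and SOC1, lower in dwarf, and TEM1, higher in dwarf, beside 20.0% of all genes tested. The 3 comparisons share their libraries in pairs and are not independent of each other.

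**Figure D2:**
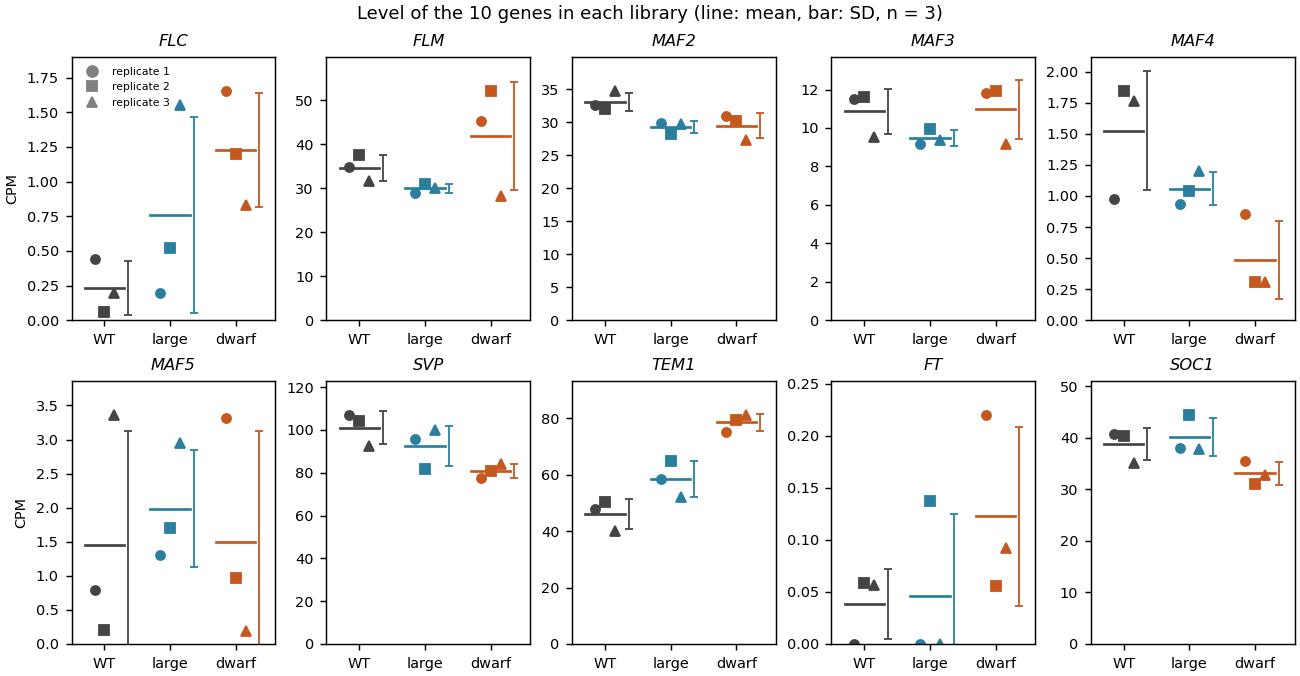
Level of each of the 10 genes in CPM in the 3 WT, 3 large and 3 dwarf libraries, with the group mean as a line and the SD (n = 3) as a bar, drawn no lower than 0. The 3 dwarf libraries lie above all large and WT libraries for TEM1, and below them for MAF4, and FLC, MAF5 and FT spread widely within groups.

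Among the repressors, FLC (AT5G10140, chromosome 5) had very few counted reads in WT, at 0.444, 0.0585 and 0.199 CPM in WT 1, 2 and 3. It was at 0.199, 0.52 and 1.55 CPM in large 1, 2 and 3 and at 1.65, 1.2 and 0.833 CPM in dwarf 1, 2 and 3. Every dwarf library was above every WT library, while large 3 reached the dwarf level and large 1 equalled WT 3. The log2 fold change was 2.38 for dwarf against WT (SE 0.79, 95% interval 0.58 to 4.18), with an adjusted p of 0.0973 by edgeR's quasi-likelihood test. DESeq2 (2.37, adjusted p = 0.0295) and limma voom (2.54, adjusted p = 0.0366) called it, and over all alternatives the adjusted p ran from 0.0295 to 0.537. For large against WT it was 1.68 (SE 0.81, adjusted p = 0.313) and for dwarf against large 0.70 (SE 0.71, adjusted p = 0.615). At its highest, in dwarf 1, FLC was still 60 counted reads among 34864184.

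FLC reads were counted under a restriction. The antisense gene AT5G01675, a long noncoding RNA on the opposite strand, covers the whole of FLC, and 68.1% of the exonic bases of FLC are exonic in it too. Strand is lost in this kit, so reads from FLC and its antisense partner cannot be told apart there. If such reads were set aside as ambiguous, the FLC counts and levels given here are too low, by an unknown amount. Reads set aside as ambiguous were 0.228 to 0.309% of each library, which is 80004 to 109070 reads. How many of them came from FLC is not known. AT5G01675 itself had at most 0.0296 CPM. On the next genes along the chromosome no change was called. AT5G10120 was at 0 and AT5G10130 at most at 0.171 CPM in every library, and AT5G10150 (-0.24, adjusted p = 0.634) and AT5G10160 (-0.04, adjusted p = 0.926) were not called in dwarf against WT. MIPS3, an enzyme of inositol synthesis, stood at a log2 fold change of -0.81 with an adjusted p of 0.0723 there.

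FLM (AT1G77080, chromosome 1), a repressor whose splice forms respond to temperature, was at 34.8, 37.5 and 31.6 CPM in WT 1, 2 and 3 and at 29, 30.9 and 30 CPM in large 1, 2 and 3. In dwarf 1, 2 and 3 it was at 45.2, 52 and 28.2 CPM. Dwarf 1 and 2 were the highest of the 9 libraries and dwarf 3 the lowest. The log2 fold change was 0.27 (SE 0.19, adjusted p = 0.407) for dwarf against WT, -0.21 (SE 0.19, adjusted p = 0.664) for large against WT and 0.48 (SE 0.19, adjusted p = 0.214) for dwarf against large. Without dwarf 3, edgeR called both dwarf comparisons (0.49, adjusted p = 0.00965, against WT and 0.70, adjusted p = 0.00461, against large). That fit called 4477 of all genes against WT and 3236 against large, where the fit of all 9 libraries called 1740 and 129.

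The high FLM values of dwarf 1 and 2 were shared by the genes around it. The 50 nearest expressed genes on each side had a median ratio to the WT mean of 1.47 in dwarf 1 and 1.48 in dwarf 2, and of 0.978 to 1.01 in the other 7 libraries. FLM itself stood at 1.31 and 1.5 times its WT mean in dwarf 1 and 2. With the neighbours' ratio of each library taken out in the fit, the log2 fold change of FLM for dwarf against WT was -0.14 (SE 0.09, adjusted p = 0.424) and for dwarf against large 0.08 (adjusted p = 0.695). For the 8 genes other than FLM and TEM1 the neighbours' log2 ratio lay between -0.10 and 0.03 in all 9 libraries. What raised these stretches was not tested.

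**Figure D3:**
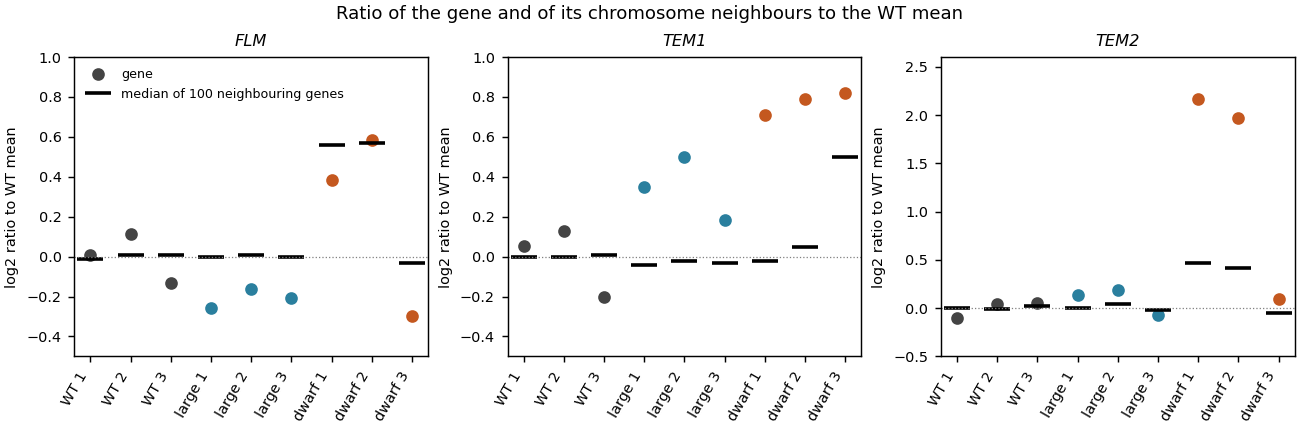
log2 ratio of FLM, TEM1 and TEM2 to their WT mean in each library (points), with the median log2 ratio of the 100 neighbouring expressed genes (black bars). The bars rise in dwarf 1 and 2 around FLM and TEM2 and in dwarf 3 around TEM1, and lie near 0 elsewhere; TEM1 lies above its bar in all 6 transgenic libraries.

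MAF2, MAF3, MAF4 and MAF5 lie side by side between positions 25982254 and 26002619 of chromosome 5, and they did not move together. MAF2 (AT5G65050), which guards against flowering after short cold, was at 32.6, 32 and 34.7 CPM in WT 1, 2 and 3, at 29.9, 28.3 and 29.7 CPM in large 1, 2 and 3 and at 31, 30.2 and 27.4 CPM in dwarf 1, 2 and 3. All 6 transgenic libraries were below all 3 WT libraries, by a small margin. The log2 fold change was -0.17 in both comparisons with WT (SE 0.08 in each, adjusted p = 0.228 for dwarf and 0.285 for large), and 0.01 (SE 0.08, adjusted p = 0.96) between dwarf and large. The interval of the last, -0.17 to 0.19, is the narrowest of the 9 genes.

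MAF3 (AT5G65060), a repressor that can act in complexes with the other clade members, was at 11.5, 11.6 and 9.53 CPM in WT, 9.18, 9.96 and 9.35 CPM in large and 11.8, 11.9 and 9.19 CPM in dwarf, in the order of the replicate numbers. The 3 groups overlapped. Against WT, dwarf stood at 0.01 on the log2 scale (SE 0.13, adjusted p = 0.962, with a 95% interval of -0.28 to 0.31). Large stood at -0.20 against WT (SE 0.13, adjusted p = 0.507), and dwarf at 0.21 against large (SE 0.13, adjusted p = 0.407).

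MAF4 (AT5G65070), a repressor of flowering, was at 0.976, 1.84 and 1.76 CPM in WT 1, 2 and 3 and at 0.938, 1.04 and 1.2 CPM in large 1, 2 and 3. In dwarf 1, 2 and 3 it was at 0.851, 0.307 and 0.308 CPM, from 31, 11 and 10 counts. The dwarf libraries were lowest, although dwarf 1 lay close to large 1 and WT 1. For dwarf against WT the log2 fold change was -1.63 (SE 0.43, 95% interval -2.61 to -0.65), and the adjusted p of 0.0505 by edgeR's quasi-likelihood test did not pass. It passed in 6 of 19 alternatives, among them DESeq2 (-1.66, adjusted p = 0.00613), limma voom (-1.87, adjusted p = 0.0249) and the fit without dwarf 1 (-2.30, adjusted p = 0.0143), and the adjusted p over all 19 ran from 0.00613 to 0.369. MAF4 stood at -0.53 (SE 0.41, adjusted p = 0.584) for large against WT and -1.10 (SE 0.43, adjusted p = 0.209) for dwarf against large.

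MAF5 (AT5G65080), which in other settings responds to cold in the opposite way to FLC, was the least regular gene of the cluster. It was at 0.799, 0.205 and 3.36 CPM in WT 1, 2 and 3, at 1.31, 1.7 and 2.95 CPM in large 1, 2 and 3 and at 3.32, 0.975 and 0.185 CPM in dwarf 1, 2 and 3. WT and dwarf each held both low and high libraries, and the highest and lowest of the 9 were WT 3 and dwarf 3. In log2 terms dwarf stood at 0.04 from WT (SE 1.01, adjusted p = 0.983), with a 95% interval as wide as -2.24 to 2.33. Large stood at 0.44 from WT (SE 1.00, adjusted p = 0.889) and dwarf at -0.40 from large (SE 1.00, adjusted p = 0.858). Both comparisons with WT changed sign with WT 3 as the only WT library, to -1.16 and -0.76.

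Beside the cluster, no flanking gene was called in any comparison. BST1, needed for root hairs, was at 3.11 to 3.51 CPM in WT, 2.7 to 3.23 CPM in large and 10.1, 6.8 and 2.99 CPM in dwarf 1, 2 and 3, a log2 fold change of 0.99 against WT (adjusted p = 0.12). ACX2, an enzyme of fatty acid breakdown, stood at 0.24 (adjusted p = 0.62), the noncoding AT5G09295 at 0.26 (adjusted p = 0.551), AT5G65040 at 1.12 (adjusted p = 0.19) and AT5G65030 at 1.24 (adjusted p = 0.149), and AT5G65100 was at 0 in every library.

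SVP (AT2G22540, chromosome 2), the partner that binds DNA with FLC and FLM, was the most abundant of the repressors. It was at 107, 104 and 92.4 CPM in WT 1, 2 and 3, at 95.7, 81.8 and 100.0 CPM in large 1, 2 and 3 and at 77.5, 80.6 and 84.1 CPM in dwarf 1, 2 and 3. The dwarf libraries lay below all WT libraries, and large 2 lay among them. Dwarf stood at a log2 fold change of -0.32 from WT (SE 0.10, 95% interval -0.55 to -0.10), with an adjusted p of 0.0785 by edgeR's quasi-likelihood test. It was called by 4 of 19 alternatives, with upper-quartile factors (-0.40, adjusted p = 0.046), by DESeq2 (-0.34, adjusted p = 0.018), by limma voom (-0.35, adjusted p = 0.0248) and without dwarf 3 (-0.36, adjusted p = 0.048). For large against WT it was -0.13 (SE 0.10, adjusted p = 0.59) and for dwarf against large -0.20 (SE 0.10, adjusted p = 0.311).

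TEM1 (AT1G25560, chromosome 1, 8981556 to 8983314), the repressor that acts on FT directly, rose in dwarf. It was at 47.7, 50.2 and 40.0 CPM in WT 1, 2 and 3, at 58.6, 64.9 and 52.2 CPM in large 1, 2 and 3 and at 75.2, 79.5 and 81.2 CPM in dwarf 1, 2 and 3. The 3 groups formed separate steps, with WT lowest, large between and dwarf highest, and no library crossed from one step to the next. Dwarf was 1.71-fold above WT (95% interval 1.44 to 2.04), a log2 fold change of 0.77 (SE 0.11) with an adjusted p of 0.00762 by edgeR's quasi-likelihood test. Large stood at 0.35 (SE 0.11, 95% interval 0.10 to 0.60) against WT with an adjusted p of 0.122, and dwarf against large at 0.43 (SE 0.11, 95% interval 0.17 to 0.68) with an adjusted p of 0.0991. Neither of the last passed by edgeR, whereas limma voom called both (adjusted p = 0.0251 and 0.0252) and DESeq2 called dwarf against large (adjusted p = 0.0168).

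The rise of TEM1 in dwarf 1 and 2 was not shared by the genes around it, while that in dwarf 3 was in part. The neighbours' median ratio to WT was 0.989 in dwarf 1, 1.03 in dwarf 2 and 1.41 in dwarf 3, where TEM1 stood at 1.64, 1.73 and 1.77 times its WT mean. With the neighbours' ratio taken out, the log2 fold change for dwarf against WT was 0.61 (SE 0.14) and the adjusted p 0.0481 by edgeR. For dwarf against large it moved from 0.43 to 0.23 (SE 0.14, adjusted p = 0.415), and for large against WT to 0.38 (SE 0.14, adjusted p = 0.207). The rise in dwarf against WT was called in each fit that left out 1 of the 9 libraries, and 18 of 19 alternatives called it. The exception was WT 3 as the only WT library, the one WT library with a clear meristem signal, where it stood at 0.97 (adjusted p = 0.346) in a fit that called 0 of all genes tested and 2083 at an unadjusted p under 0.05. TEM1 was lowest in WT 3, at 40.0 CPM, and STM, which marks the meristem, was at 0.0296, 0.0292 and 0.853 CPM in WT 1, 2 and 3. In the transgenic libraries STM was higher than in WT 3, at 2.99 to 8.19 CPM. Any part of meristem content in the level of TEM1 was not tested.

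**Figure D4:**
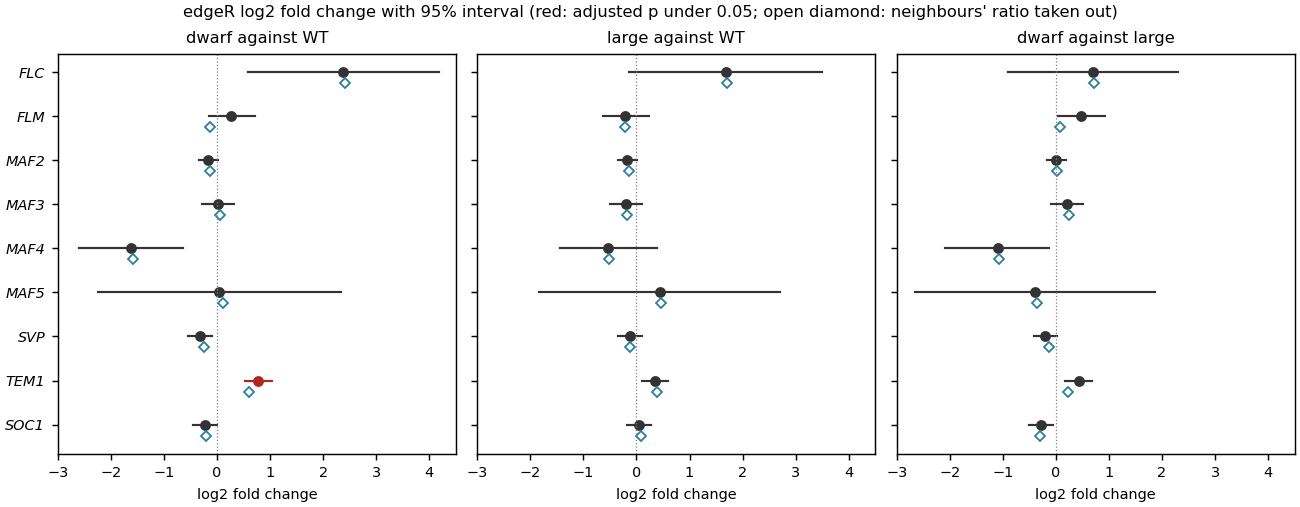
log2 fold change of the 9 tested genes with its 95% interval in the 3 comparisons, from edgeR's quasi-likelihood test, with open diamonds for the value after the neighbours' ratio was taken out. TEM1 in dwarf against WT, in red, is the only value with an adjusted p under 0.05, and the diamond of FLM moves to the other side of 0 in that comparison.

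Of the integrators, FT (AT1G65480, chromosome 1) was almost absent. It had 0, 2 and 2 counts in WT 1, 2 and 3, 0, 5 and 0 in large 1, 2 and 3 and 8, 2 and 3 in dwarf 1, 2 and 3. Every library held fewer than 10 reads, and most were at or below the floor of 3 counts, which is 0.0821 to 0.0925 CPM in 1 library. Summed over a group, FT was at 0.124 CPM in dwarf (exact Poisson interval 0.0661 to 0.212), 0.0472 CPM in large (0.0153 to 0.11) and 0.0388 CPM in WT (0.0106 to 0.0993), where intervals and floors cover counting error only. It was left out of the test by the filter on low counts, and in a fit with no filter its log2 fold change for dwarf against WT was 1.55 (SE 1.18, adjusted p = 0.489). A difference in FT between the groups was not detectable at this depth. Its close relative TSF, of the same function, had 20, 6 and 0 counts in dwarf 1, 2 and 3, 3 in large 2 and 0 in the remaining 5 libraries (dwarf against WT unadjusted p = 0.0229, adjusted p = 0.146, with no filter).

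SOC1 (AT2G45660, chromosome 2) was at 40.8, 40.4 and 35.1 CPM in WT 1, 2 and 3, at 38, 44.4 and 37.9 CPM in large 1, 2 and 3 and at 35.4, 31 and 32.8 CPM in dwarf 1, 2 and 3. Dwarf lay below large without overlap and met WT at its upper end, since dwarf 1 was above WT 3. From WT, dwarf stood at -0.23 on the log2 scale (SE 0.10, adjusted p = 0.192, interval -0.46 to 0.00), and from large at -0.28 (SE 0.10, adjusted p = 0.178, interval -0.51 to -0.05). For large against WT it was 0.05 (SE 0.10, adjusted p = 0.87). None of 19 alternatives called SOC1 in any of the comparisons.

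MADS-box proteins bind the CArG box, and the 250 bases before the annotated start of each of the 10 genes were searched for it on both strands. Its strict form, CCWWWWWWGG with W for A or T, was found in 0 of the 10, and in 2.52% of the same windows of 27443 protein-coding genes. At that share 10 windows would mostly hold none, so the result does not set these genes apart. Looser forms, and boxes farther upstream or inside the genes, were not searched for.

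The genes with the most similar pattern were named by the smallest root mean square difference in log2 CPM over the 9 libraries, each gene centred on its own mean, for FLC, MAF4, FT and SOC1. For FLC they were PYL6, an abscisic acid receptor (0.64), AT1G72140 (0.67) and AZI1, a lipid transfer protein of systemic immunity (0.70), where FLC's own departure from its mean was 1.27. For MAF4, with 0.81 of its own, they were AT2G35070 (0.31), LAC2, a laccase (0.35), and AT5G61290 (0.39). For FT, with 0.77, they were AT3G23550 (0.26), AT1G13340 (0.32) and ATERDJ3A (0.35), matched to very few reads. For SOC1, with 0.15, they were NHX1, a vacuolar sodium and proton exchanger, AT4G18530 and PHL1, a regulator of phosphate starvation genes, all at 0.07.

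The pathways that feed into these genes were followed in 72 other flowering genes in 6 lists, of which 63 were tested. In dwarf against WT, 4 rose and 3 fell, which is 11.1% of the 63 beside 8.76% of all genes tested, with a median of 0.00. In large against WT, 1 rose and 0 fell, 1.59% beside 4.22%, with a median of 0.05. In dwarf against large, 0 rose and 1 fell, 1.59% beside 0.649%, with a median of -0.01. By list, the calls in dwarf against WT were 1 of 10 photoperiod genes, 1 of 8 autonomous genes, 1 of 9 vernalization and Polycomb genes, 0 of 15 FLC activators, 3 of 11 other repressors and 1 of 10 downstream genes. Among the FLC activators, SDG8, a histone methyltransferase, had the smallest p there, at 0.46 (adjusted p = 0.0653), and FRI the smallest in large against WT, at 0.58 (adjusted p = 0.0924). The neighbours of SDG8 stood at 1.46 and 1.49 times WT in dwarf 1 and 2, and those of FRI at 1.37 to 1.82 times WT in all 6 transgenic libraries. With the neighbours' ratio taken out, SDG8 was at 0.08 (adjusted p = 0.562) and FRI at 0.10 (adjusted p = 0.767). The 7 calls in dwarf against WT moved with those over all genes, which were 1740 with all 9 libraries. Of the 63, edgeR called 0 without WT 1 (13 at an unadjusted p under 0.05), beside 266 of all genes. Without WT 2 it called 0 (14 at an unadjusted p under 0.05), beside 293 of all genes, and without WT 3 it called 2, beside 724. It called 4 without dwarf 2, beside 1110 of all genes, and 14 without dwarf 3, beside 4477.

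Of the other repressors, TEM2, the nearest relative of TEM1 on this list, was at 9.08, 10 and 10.1 CPM in WT, 10.7, 11.1 and 9.29 CPM in large and 43.6, 38.2 and 10.4 CPM in dwarf, in replicate order. It was high in dwarf 1 and 2 only, and dwarf 3 lay just above WT. The log2 fold change was 1.66 (SE 0.42, adjusted p = 0.0449), which edgeR called without dwarf 3 (2.07, adjusted p = 3.16e-04) and not without any other 1 library (adjusted p from 0.0628 to 0.154), and 1.29 (adjusted p = 0.0623) with the neighbours' ratio taken out, which was 1.38 in dwarf 1 and 1.34 in dwarf 2. The AP2-type repressors TOE3, at -0.61 (SE 0.10, adjusted p = 0.0114), and SNZ, at -0.73 (SE 0.16, adjusted p = 0.028), fell in dwarf, the latter with an adjusted p of 0.0501 once the neighbours' ratio was taken out. TOE3 was at 8.78, 8.31 and 8.56 CPM in WT 1, 2 and 3 and at 5.38, 5.29 and 6.11 CPM in dwarf 1, 2 and 3. TOE1, of the same family, stood at -0.36 (adjusted p = 0.0529) in large against WT and at -0.32 (adjusted p = 0.0535) in dwarf against WT.

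Regulators above FLC and FT that were called lay mostly in raised stretches. LD, of the autonomous pathway, was at 26.9, 25.8 and 27.8 CPM in WT 1, 2 and 3, 42.5, 36.7 and 42.6 CPM in large and 57.3, 41.5 and 43.2 CPM in dwarf. It rose in dwarf (0.82, adjusted p = 0.00985) and in large (0.60, adjusted p = 0.0402), and its neighbours stood at 1.42 to 1.87 times WT in all 6 transgenic libraries. With their ratio taken out it was at 0.14 (adjusted p = 0.343) and 0.08 (adjusted p = 0.722). The call in dwarf was lost without WT 1 (adjusted p = 0.0548) or WT 2 (0.0541), where 266 and 293 of all genes were called, beside 1740. That in large was lost without any 1 of the large or WT libraries (adjusted p from 0.0696 to 0.169), where 9 to 548 of all genes were called, beside 838. SWN, a Polycomb histone methyltransferase on the same end of chromosome 4, rose in dwarf (0.65, adjusted p = 0.0191). In large against WT it stood at 0.53 (adjusted p = 0.0539), without overlap and without passing edgeR's test. With the neighbours' ratio out, SWN stood at -0.02 (adjusted p = 0.893) in dwarf and 0.02 (adjusted p = 0.94) in large. CDF5 (AT1G69570), a repressor of CO transcription, rose by 1.25 in dwarf (adjusted p = 0.0403) and stood at 0.86 (adjusted p = 0.0933) in that fit. It was at 11.3, 5.91 and 5.4 CPM in dwarf 1, 2 and 3. With 1 library left out, CDF5 was called only without dwarf 3 and without large 2.

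Downstream of the integrators, AGL42, a MADS-box relative of SOC1 that promotes flowering, fell in dwarf. It was at 5.59, 5.06 and 5.8 CPM in WT 1, 2 and 3, at 8.81, 8.78 and 5.38 CPM in large 1, 2 and 3 and at 0.823, 2.45 and 1.2 CPM in dwarf 1, 2 and 3. All dwarf libraries were far below the other 6, while large and WT overlapped. It stood at -1.87 on the log2 scale (SE 0.36, adjusted p = 0.0186) against WT and at -2.36 (SE 0.37, adjusted p = 0.0373) against large, the only flowering gene outside the 10 that was called between dwarf and large. With the neighbours' ratio taken out it stood at -1.92 (adjusted p = 0.026) and -2.40 (adjusted p = 0.0362). The call against WT was lost without WT 1, 2 or 3 (adjusted p from 0.0561 to 0.0739). Those fits called 266 to 724 of all genes there, beside 1740 with all 9 libraries. The call against large was lost without any 1 library other than dwarf 1 and dwarf 3 (adjusted p from 0.0538 to 0.159). Those fits called 0 to 14 of all genes there, beside 129 with all 9 libraries. Over the fits with 1 library left out, the log2 fold changes lay between -1.58 and -2.44 against WT and between -2.06 and -2.92 against large. AGL24, an activator of SOC1, was at 0.37 (adjusted p = 0.065) in large against WT, and FD, the partner of FT, at 0.68 (adjusted p = 0.13) there and at -0.81 (adjusted p = 0.108) in dwarf against large.

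**Figure D5:**
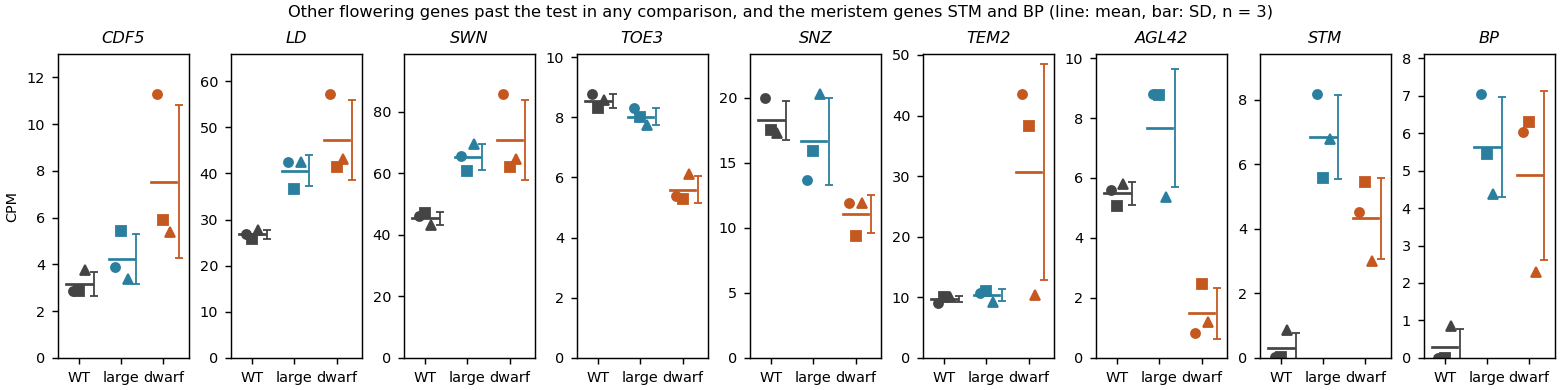
Level in CPM of the 7 other flowering genes called in any comparison, and of the meristem genes STM and BP, in the 3 WT, 3 large and 3 dwarf libraries (line, group mean; bar, SD, n = 3; circles, squares and triangles, replicates 1, 2 and 3). AGL42 is low in all dwarf libraries, TEM2 is high in dwarf 1 and 2, and STM and BP are near 0 in WT 1 and 2.

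STM, which keeps meristem cells undifferentiated, rose against WT in dwarf (3.80, adjusted p = 0.0233) and in large (4.46, adjusted p = 0.0251), as did BP, of the same class (4.06, adjusted p = 0.0374, and 4.27, adjusted p = 0.0474). In WT 1, 2 and 3 BP was at 0, 0 and 0.853 CPM. The calls of STM and BP were not followed through the alternative fits. Over all genes, the calls in large against WT fell from 838 to 9 without WT 1 and to 9 without WT 2. The other meristem markers tested, CUC2 (0.97, adjusted p = 0.458, and 1.13, adjusted p = 0.508) and CUC3 (0.89, adjusted p = 0.594, in dwarf and adjusted p = 0.457 in large), were not called in dwarf or large. BP lies in a raised stretch, with neighbours at 1.41 to 1.93 times WT in the 6 transgenic libraries, while those of STM stood at 0.992 to 1.05. STM and BP were not called in dwarf against large (-0.66, adjusted p = 0.595, and -0.21, adjusted p = 0.908). The sum of the root markers, nearly all of it PYK10, was at 2.81, 0.994 and 21.3 CPM in WT 1, 2 and 3, 38.1 to 46.2 CPM in large and 30.5 to 43.8 CPM in dwarf, with 5 of 7 markers detected and EXPA18 and BRN1 at 0 in every library. Floral organ markers summed to 1.2 to 1.59 CPM in WT, 1.84 to 1.94 CPM in large and 1.05 to 1.89 CPM in dwarf, with 10 of 12 detected and SUP and MS2 at 0. The part of these tissues in the levels of the flowering genes was not tested.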

How the data were processed

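RNA of the 9 samples was made into TruSeq version 2 libraries and read in pairs, per the labels' protocols. The tools were Trim Galore 0.4.1 and STAR 2.7.0a on the TAIR10 build, per the submitters' processing notes. The program, annotation and strand setting behind the counts were not given in the sources used here. The authors deposited whole-number counts per gene, not normalized, in 1 file per library. Reads outside genes made up 0.642 to 0.9% and ambiguous reads 0.228 to 0.309%, and both were left out of library sizes and tests.

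With R 4.3.3, the counts of all 33977 genes were filtered with filterByExpr, and TMM factors were computed from the genes kept. These genes were put through the quasi-likelihood test of edgeR 4.0.16, with 1 fit for the 9 libraries, 3 groups and no block. A call is an adjusted p under 0.05, by Benjamini and Hochberg's method, among the 19870 genes tested, and intervals are at 95%. Standard errors were derived by dividing the size of the log2 fold change by the root of its F statistic. No library was dropped. The script was tested on simulated data. The labels call the libraries biological replicates and do not say whether they came from separate plants or pools, so p-values measure the spread between these samples, which may be technical.

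CPM are counts scaled by library total and TMM factor. A prior count of 2 was added for log2 CPM. The neighbours' ratio is the median, over the 50 nearest genes on each side with at least 5 CPM, of the ratio to the WT mean with 0.5 CPM added. Alternatives were size factors of DESeq2 1.42.0 or upper-quartile factors, no filter or at least 1 CPM in 3 libraries, only the 2 groups compared, the replicate number as a block, the DESeq2 Wald test, voom of limma 3.58.1 with quality weights, the neighbours' ratio as an offset, each library left out in turn, and, chosen after seeing the data, WT 3 as the only WT library. Positions and sequences come from RefSeq's TAIR10.1. The symbols CDF5 and FLX were not found beside their identifiers in its gene table and follow common usage.

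The 10 genes, the 6 flowering lists and the marker lists were chosen with earlier results of these data known. Named from the lists were up to 4 called genes per list and comparison with the smallest p, or the 1 gene with the smallest p where none was called. Also named were the 3 annotated genes on each side of FLC and of the MAF cluster, and the 3 genes with at least 1 CPM most like FLC, MAF4, FT and SOC1. TSF, and STM and BP outside the marker sums, were named after their values were seen.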

Additional observations from a re-analysis of the deposited data

Results flagged for a closer look

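The dwarf and the large plants differed in how they compared with WT for AGL42, by the test of the difference itself. On the log2 scale, dwarf stood at -1.87 (SE 0.36) and large at 0.48 (SE 0.34) relative to WT, and the difference between them was -2.36 (SE 0.37, 95% interval -3.19 to -1.52), with an adjusted p of 0.0373 by edgeR's quasi-likelihood test. All 3 dwarf libraries lay below all 3 large libraries. Both contrasts use the same WT libraries, which cancel in the difference, so this is the comparison of dwarf with large. The call was lost with only the 2 groups compared (adjusted p = 0.174), with the replicate block (adjusted p = 0.0594) and without any 1 library other than dwarf 1 or dwarf 3 (adjusted p from 0.0538 to 0.159). The fits that lost it called 0 to 14 of all genes in this comparison, beside 129 in the fit of 9 libraries without a block.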

How the results depend on the processing

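The rise of TEM1 in dwarf kept its direction and its call under every alternative other than WT 3 as the only WT library (0.97, adjusted p = 0.346). Of the 10 genes, the number called in dwarf against WT was 1, beside 1740 of all genes. It became 2 with DESeq2 size factors (1726 of all genes), 3 with upper-quartile factors (1812) and 2 with no filter (1542). By the DESeq2 Wald test it became 4 (3184 of all genes) and by limma voom 5 (4626). When 1 library was left out it was 1 to 3 (266 to 4477 of all genes). In large against WT it became 1 by limma voom (4192 of all genes) and stayed at 0 to 0 with 1 library left out (9 to 1599). In dwarf against large it became 1 by DESeq2 (1706 of all genes) and 2 by limma voom (3781). There it was 0 to 1 when 1 library was left out (0 to 3236 of all genes). Of the 27 values of the 9 genes in 3 comparisons, 504 alternative values were computed, of which 27 changed sign, and none of those that changed sign was called.

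The sign of FLM in dwarf against WT turned with the neighbours' ratio out (-0.14). That of MAF3 turned with DESeq2 size factors (-0.01), upper-quartile factors (-0.06), no filter (-0.02), only the 2 groups (-0.01), the DESeq2 Wald test (-0.01), and with 1 library left out (-0.08 to 0.12). MAF5 turned with upper-quartile factors (-0.05), WT 3 alone (-1.16) and 1 library left out (-1.30 to 1.57). In large against WT, MAF5 turned with WT 3 alone (-0.76) and 1 library left out (-0.07 to 1.98), SVP with WT 3 alone (0.00), and SOC1 by limma voom (-0.01) and with 1 library left out (-0.03 to 0.09). In dwarf against large, MAF2 turned with upper-quartile factors (-0.05), no filter (-0.01) and 1 library left out (-0.03 to 0.06), and MAF5 without dwarf 3 (-1.75 to 0.11). SWN in dwarf against WT turned with the neighbours' ratio out (-0.02).

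Of the other flowering genes, the count in dwarf against WT, 7, became 2 with only the 2 groups compared, 11 by DESeq2, 16 by limma voom, 2 with the neighbours' ratio out and 0 with WT 3 alone, with 0 to 14 when 1 library was left out. In large against WT, 1 became 8, 6, 13, 0 and 0 in the same order, with 0 to 8 without 1 library. In dwarf against large, 1 became 2 with upper-quartile factors, 0 with only the 2 groups, 9 by DESeq2 and 10 by limma voom, with 0 to 9 without 1 library. Over all genes, 1740 in dwarf against WT became 467 with only the 2 groups, 3184 by DESeq2, 4626 by limma voom, 839 with the neighbours' ratio out and 0 with WT 3 alone (2083 at an unadjusted p under 0.05), with 266 to 4477 without 1 library. In large against WT, 838 became 2205, 1833, 4192, 353 and 0 in the same order (1385 at an unadjusted p under 0.05 in the last), with 9 to 1599 without 1 library. In dwarf against large, 129 became 0 with only the 2 groups, 1706 by DESeq2 and 3781 by limma voom, with 0 to 3236 without 1 library. The causes of these shifts were not tested.

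The labels do not say that equal replicate numbers share anything, and libraries of equal number did not deviate together as a set. Over the 9 pairs of equal number the correlation was -0.24 to 0.426 (median -0.0316), with dwarf 3 and large 3 the highest. Over the 18 pairs of unequal number it was -0.508 to 0.575 (median 0.0092), so some libraries of different groups did deviate together or in opposite ways. With the replicate number as a block, edgeR called 1, 0 and 0 of the 10 genes, 5, 1 and 0 of the other flowering genes, and 1263, 618 and 0 of all genes (3857 at an unadjusted p under 0.05 in the last) in dwarf against WT, large against WT and dwarf against large. FT was limited by its counts, and FLC and MAF4 had few, whereas MAF5 had more counts in all than MAF4 and a wider spread between libraries.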
